A study of Mus musculus with 6 samples.

Results

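The genes described here are 9 ligands and receptors of antigen-presenting cells that raise or restrain T cell responses, namely Cd40, Cd80, Cd86, Cd83, Cd274, Pdcd1lg2, Icosl, Havcr2 and Lgals9. They were chosen by name, and all 9 were found once each among the 46072 gene identifiers of the count table. RNA was measured in monocytes from the spleen of female C57BL/6 mice 8 to 10 weeks old. Mice of the Con group (n = 3) received water by oral gavage, and mice of the Van group (n = 3) received 2 mg of the antibiotic vancomycin per day as 2 gavages of 1 mg. Both groups were treated for 6 days and were left with no antibiotic for a further 6 to 8 days by the labels, while the text on the sequenced mice gives 8 days. Each library stands for 1 mouse. The cells were not stimulated in culture. They were enriched with magnetic beads that remove other cells. The purity reported by the study was not complete, so that the libraries could hold some cells that were not monocytes.

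A T cell that meets its antigen needs further signals from the presenting cell. CD80 and CD86, both of the B7 family, give such a signal through CD28 and are also bound by the inhibitory receptor CTLA-4. ICOS ligand (Icosl) binds ICOS, while CD40 receives a signal from CD40 ligand on the T cell and is known to raise B7 molecules on presenting cells. PD-L1 (Cd274) and PD-L2 (Pdcd1lg2) bind the inhibitory receptor PD-1. Galectin-9 (Lgals9) is a sugar-binding protein known as a ligand of TIM-3 (Havcr2), a receptor that is found on myeloid cells as well as on T cells. CD83 is a surface protein of mature dendritic cells and activated lymphocytes that holds MHC class II and CD86 at the cell surface.

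In the Van group, Cd86 tended to be higher and Cd40 and Lgals9 lower than in the Con group, with no overlap between the mice of the groups, but none of the 9 genes passed the threshold of the main test. Cd86 averaged 108.6 ± 8.12 CPM (counts scaled to the total of the library; SD, n = 3) in Van and 87.4 ± 3.98 in Con. Cd40 averaged 21.5 ± 2.95 CPM in Van and 32.1 ± 4.35 in Con, the largest fold change of the 9. Lgals9 averaged 89.9 ± 8.63 CPM in Van and 108.0 ± 8.66 in Con. For the other 6 genes the mice of the groups overlapped. The groups were also without overlap in 22.5% of all 16138 genes tested.

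The libraries held between 43.4M and 61.8M estimated counts, and the 9 genes had between 220 (Pdcd1lg2) and 23930 (Cd83) counts in a library. All 9 were therefore well above the filter on low counts. The groups were compared with edgeR's quasi-likelihood test on all 16138 genes that passed the filter, and p-values were adjusted over those genes by the Benjamini-Hochberg method, with a threshold of 0.05. A gene is said to be called where edgeR called it, unless another test is named. Of all genes tested, 2.00% were called (322 genes), 16.5% had an unadjusted p under 0.05, and 22.5% showed no overlap between the groups. Of the 9 genes, 0 were called, 3 had an unadjusted p under 0.05 and 3 showed no overlap. With DESeq2's Wald test, the test named by the study, 2 of the 9 were called (Cd40 and Cd86), beside 7.36% of the 13063 genes to which it gave an adjusted p. In edgeR 3 of the 9 genes had a log2 fold change above 0 and 6 below 0. Their median was -0.06, beside -0.0014 over all genes tested, and the median of the sizes was 0.24, beside 0.15. An exact two-sided permutation test of a single gene with 3 mice against 3 cannot give a p under 0.10, which is the value for Cd40, Cd86 and Lgals9.

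**Figure D1:**
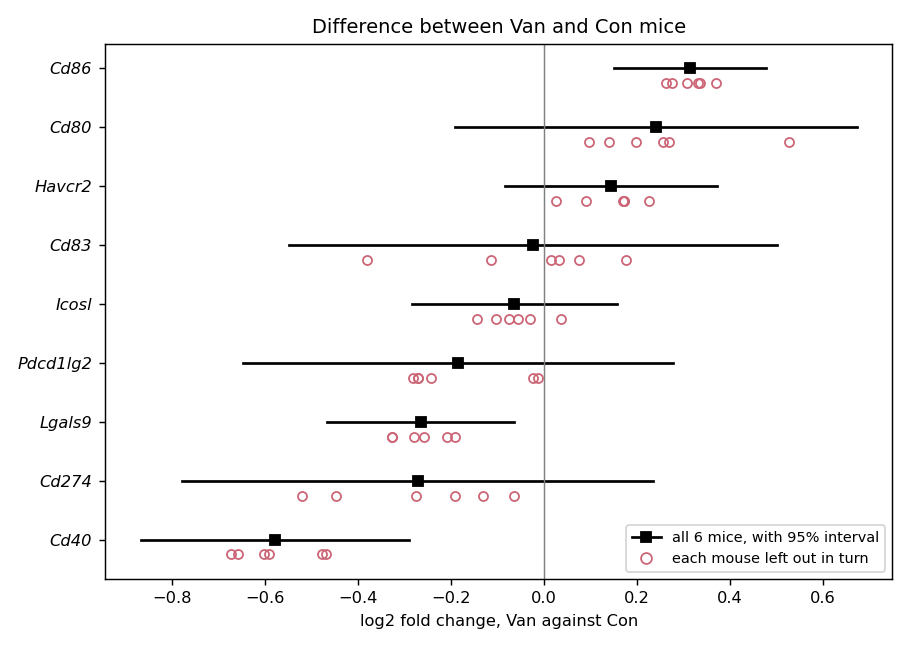
Log2 fold change of Van against Con for the 9 genes (squares, edgeR) with the 95% interval (lines), and the log2 fold change after leaving out each of the 6 mice in turn (open circles). The intervals of Cd86, Cd40 and Lgals9 lie on one side of 0, and the circles of Cd83 and Icosl fall on both sides.

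The labelled cell type was checked against marker genes. The 12 monocyte markers were all above 0 in every library and summed to 26494 to 26950 CPM in Con and 25843 to 26248 in Van. Of these, Ccr2, the chemokine receptor of classical monocytes, was called lower in Van (log2 fold change -0.83, adjusted p = 0.0283 by edgeR), a call that was lost in 4 of the 6 fits that left out a mouse (adjusted p 0.0113 to 0.0991, lost without any 1 of the Con mice and without Van replicate 2). The Ccr2 call was also lost with a replicate block in edgeR (adjusted p = 0.0549). In limma it was lost on log2(FPKM + 1) (0.119) and log2(FPKM + 0.1) (0.0983), but held on genes with a mean of at least 1 FPKM (0.0371). DESeq2 called 3 of the 12, namely Ccr2 and Itgam lower and Cd14 higher (log2 fold change 0.28, adjusted p = 0.101 by edgeR and 0.00932 by DESeq2). Lists for other cells of the spleen were far lower, apart from red pulp macrophages (9 markers, 3500 to 4219 CPM in Con and 4073 to 5219 in Van) and conventional dendritic cells (12 markers, 906 to 1065 and 875 to 1045 CPM). The sums were 21.6 to 26.6 and 17.0 to 20.6 CPM for B cells, 49.9 to 67.2 and 36.9 to 51.8 for T cells, 149 to 157 and 143 to 151 for plasmacytoid dendritic cells, and 60.8 to 88.3 and 70.6 to 91.7 for eosinophils and basophils. The last 3 sums rested mostly on a few genes. In Con these were Cd4 (36.3 CPM) for T cells, Tcf4 (84.3) and Bst2 (54.9) for plasmacytoid dendritic cells, and Ccr3 (73.6) for eosinophils and basophils. Other markers of these lists were low in Con, such as Cd3e (0.80 CPM), Siglech (3.26) and Siglecf (0.56). Neutrophil markers, with Ly6g at 0 in all libraries, summed to at most 13.7 CPM and NK cell markers to at most 2.54 CPM. Erythroid markers summed to 81.9 to 144 CPM in Con and 226 to 491 CPM in Van, with 5 of 9 called higher, each of which lost its call in 4 to 6 of the 6 fits that left out a mouse. In bulk RNA, fewer cells of a type and less RNA per cell cannot be told apart.

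Each of the 9 is a gene of its own locus in mouse build GRCm38 with the GENCODE M21 annotation. Cd86 (chr16:36603869-36666081, minus strand) and Cd80 (chr16:38455561-38496335) lie on the same chromosome. Cd274 (chr19:29367455-29388095) and Pdcd1lg2 (chr19:29410919-29471161) are neighbours on the plus strand, with 22823 bases between them. Havcr2 (chr11:46454935-46481255) and Lgals9 (chr11:78962974-78984946, minus strand) share a chromosome, and the others are Cd40 (chr2:165055627-165072948), Cd83 (chr13:43784775-43803132) and Icosl (chr10:78069302-78083913). The exons of Cd274 share 511 bases with AC119228.1 on the opposite strand. The study names a stranded library kit, but how strand was used in counting is not given in the sources used here. Whether reads from the shared bases were told apart is therefore not known. No exon overlap was found for the other 8 genes.

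Promoter windows of 300 bases around the start of the gene were matched by symbol in RefSeq (GRCm38.p6) for 6 of the 9 genes, namely Cd80, Cd274, Pdcd1lg2, Icosl, Havcr2 and Lgals9. They were searched on both strands for an interferon response element (GAAANNGAAA), a STAT site (TTCNNNGAA) and the NF-kB consensus, 3 kinds of element bound by factors of inflammatory signalling. The interferon response element stood in 1 of the 6 (Lgals9), beside 3.44% of the 32851 promoters of the table. The STAT site stood in 0 of the 6, beside 8.3%, and the NF-kB consensus in 2 (Icosl and Pdcd1lg2), beside 8.46%. The windows of Lgals9 (chr11:78984875-78985174, minus strand) and Cd274 (chr19:29367188-29367487, plus strand) are shown, as the gene of the 6 whose groups did not overlap and as the window of the PD-1 ligand with the higher level. Capitals mark both matches to the interferon response element, which read as its reverse complement at positions 196 to 205 and 266 to 275, and the Cd274 window holds none of the 3 motifs.
Lgals9: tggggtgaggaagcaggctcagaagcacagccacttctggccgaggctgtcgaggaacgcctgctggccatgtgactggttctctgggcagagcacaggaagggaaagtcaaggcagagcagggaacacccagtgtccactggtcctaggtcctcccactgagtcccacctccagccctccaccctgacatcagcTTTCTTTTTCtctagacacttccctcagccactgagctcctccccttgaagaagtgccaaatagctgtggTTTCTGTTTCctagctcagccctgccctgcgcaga
Cd274: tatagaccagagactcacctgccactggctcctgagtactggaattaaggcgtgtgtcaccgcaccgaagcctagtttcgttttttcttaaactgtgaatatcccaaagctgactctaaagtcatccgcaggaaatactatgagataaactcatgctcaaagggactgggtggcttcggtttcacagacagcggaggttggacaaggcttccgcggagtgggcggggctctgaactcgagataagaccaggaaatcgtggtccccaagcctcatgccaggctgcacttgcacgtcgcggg
A match is a run of letters and not a measured binding site.

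Levels of the 9 genes relative to each other were read per transcript length, in FPKM, which scale the fragments to transcript length and library size. In the Con group, Cd83 had the highest level (108 ± 13.0 FPKM), followed by Lgals9 (59.8 ± 5.38), Havcr2 (45.9 ± 3.29), Cd274 (36.1 ± 9.41) and Cd86 (31.6 ± 2.13). Cd40 (13.2 ± 1.16 FPKM) and Icosl (13.1 ± 1.54) were lower, and Cd80 (7.11 ± 2.18) and Pdcd1lg2 (3.00 ± 0.53) were lowest. The mice overlapped between Havcr2 and Cd274, between Cd274 and Cd86, and between Cd40 and Icosl, and those neighbours were not separated beyond their spread. Within each ligand pair, CD86 mRNA was thus above CD80 mRNA and PD-L1 mRNA above PD-L2 mRNA in every mouse of both groups.

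The order in the Van group differed at several places. Havcr2 (51.1 ± 6.60 FPKM) and Lgals9 (50.0 ± 4.68) overlapped in Van, whereas in Con every mouse had more Lgals9 than any mouse had Havcr2. Cd86 (38.6 ± 3.35 FPKM) stood above Cd274 (30.1 ± 8.14), with overlap. Cd40 (9.03 ± 0.12 FPKM) stood below every Van value of Icosl (12.6 ± 0.53) and overlapped with Cd80 (8.48 ± 0.36). With counts per kilobase of the union of exons in place of FPKM, Havcr2 stood above Lgals9 also in Con (54.9 and 50.6 CPM per kilobase), and the other 35 of the 36 pairs of genes kept their order in Con.

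**Figure D2:**
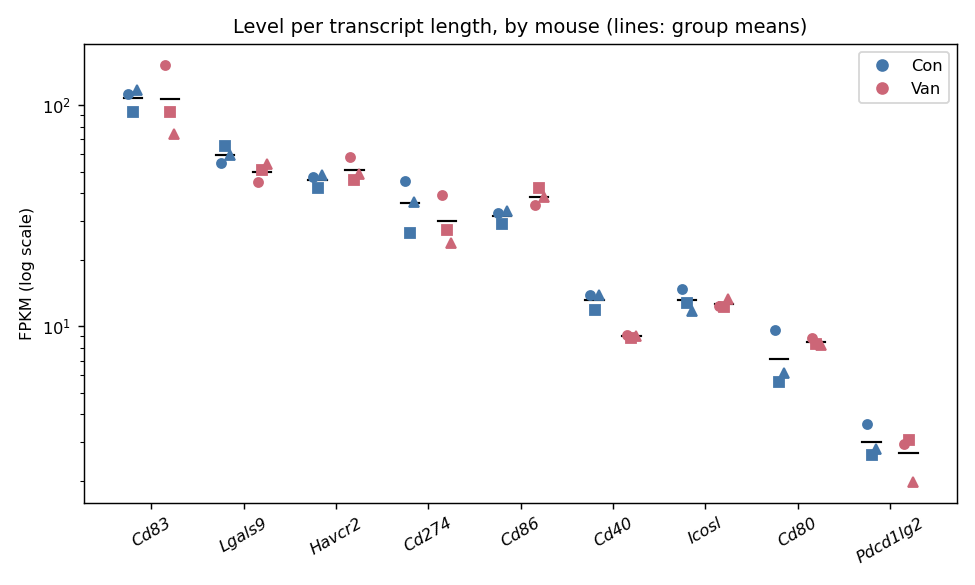
FPKM (log scale) of the 9 genes in each Con and Van mouse, ordered by the Con mean. Circles, squares and triangles are replicates 1, 2 and 3, and lines are group means. Cd83 is highest at 108 and Pdcd1lg2 lowest at 3.00 FPKM in Con, and the 3 Van values of Cd40 lie together between 8.89 and 9.12 FPKM.

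The ligands of CD28 and CTLA-4 were taken first. Cd86 was at 89.8, 82.8 and 89.6 CPM in the Con mice, given here and throughout in the order of replicates 1, 2 and 3, and at 100.1, 116.3 and 109.5 CPM in the Van mice. All Van mice were above all Con mice, and the same held in FPKM. The log2 fold change was 0.31 (SE 0.07; 95% interval 0.15 to 0.48), a 1.24-fold higher level, with a p of 0.0019 and an adjusted p of 0.0659 in edgeR. DESeq2 gave the same size and called it (adjusted p = 0.0035). The log2 fold change stayed between 0.26 and 0.37 when each mouse was left out.

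Cd80 was at 19.7, 11.5 and 12.3 CPM in Con and at 18.1, 16.5 and 16.8 CPM in Van. Con replicate 1 was the highest of all 6 mice, the other Con mice were the lowest, and the Van mice lay between them. The log2 fold change was 0.24 (SE 0.19; 95% interval -0.19 to 0.67; edgeR adjusted p = 0.598). Each Con mouse moved this value, as the log2 fold change was 0.53 without Con replicate 1 (adjusted p = 0.0640), 0.10 without Con replicate 2 and 0.14 without Con replicate 3. The ratio of Cd86 to Cd80 was 4.66 ± 1.11 in Con and 4.56 ± 0.55 in Van in FPKM, with overlap.

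March8, an E3 ubiquitin ligase with CD86 among its known substrates, rose in Van, and was the only one of the further pathway genes that edgeR called. It was at 26.2, 26.3 and 25.4 CPM in Con and at 31.7, 36.0 and 33.1 CPM in Van, with no overlap. The log2 fold change was 0.37 (SE 0.07), with an adjusted p of 0.0411 in edgeR, but the adjusted p was between 0.0623 and 0.164 when any mouse was left out, and the call was lost. The other March gene listed, March1, was more abundant and showed no such rise. It was at 231 ± 8.70 CPM in Con and 231 ± 5.59 in Van (log2 fold change 0.0020, edgeR adjusted p = 0.992).

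Beside Cd86, red pulp macrophage markers were compared. Of the 9 markers, 9 had a log2 fold change above 0 and 0 were called by edgeR and 1 (Vcam1) by DESeq2, with none at 0 CPM, and their sums overlapped between the groups (3500 to 4219 CPM in Con and 4073 to 5219 in Van). The most abundant in Con, Hmox1, the heme-degrading enzyme, was at 1067 ± 100.0 CPM in Con and 1233 ± 219 in Van, and Slc40a1, the iron exporter, was at 626 ± 78.9 and 672 ± 100.0. Vcam1, an adhesion molecule named after its values were seen, was at 624 ± 72.6 and 856 ± 90.9 CPM with no overlap. Its adjusted p was 0.0621 by edgeR and 0.000429 by DESeq2. It was also called by edgeR with no filter on low counts (adjusted p = 0.0372) and with a replicate block (0.03825). It was not called in the 3 limma settings (0.154 to 0.321), nor by edgeR with a mouse left out (0.0744 to 0.198). The part of these cells in the Cd86 difference was not tested.

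Cd40, which receives the signal of CD40 ligand, was at 36.9, 28.5 and 30.9 CPM in Con and at 24.2, 21.9 and 18.3 CPM in Van. Every Van mouse was below every Con mouse. In FPKM the separation was wider relative to the spread, with 13.9, 11.9 and 13.8 in Con and 9.12, 8.89 and 9.06 in Van. Van against Con gave a log2 fold change of -0.58 (SE 0.13; 95% interval -0.87 to -0.29), or 0.67-fold, with a p of 0.0015 and an adjusted p of 0.0609 in edgeR.

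The call of Cd40 depended on the test and on which genes were tested, while its size did not. DESeq2 called it (adjusted p = 0.0014). So did edgeR with no filter on low counts (adjusted p = 0.0393, with 1.51% of genes called), edgeR on genes with at least 10 counts in every library (0.0470, with 2.70% called) and limma on log2(FPKM + 1) of genes with a mean of at least 1 FPKM (0.0375, with 0.831% called). It was not called by limma with no filter on FPKM (0.109 with a pseudocount of 1 and 0.0983 with 0.1), nor by edgeR with RLE size factors, library size alone, counts on the fragment scale, a single identifier per symbol or a replicate block (0.0521 to 0.0621). With each mouse left out the log2 fold change stayed between -0.67 and -0.47, with an adjusted p between 0.0709 and 0.180.

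B cells and dendritic cells also carry CD40, and some of their markers were lower in Van. Markers of other cells were lower too, with 8 of 8 tested for neutrophils and 8 of 9 for T cells below 0. For plasmacytoid dendritic cells 5 of 8 were below 0, and DESeq2 called 1 (Siglech). None of these 3 lists held a call by edgeR, and 9 of 9 red pulp macrophage markers were above 0. The bead selection is described as removing cells with CD45R, a surface protein of B cells. Of 10 B cell markers, 9 were tested, all 9 had a log2 fold change below 0, and 0 were called by edgeR and 1 (Blk, adjusted p = 0.0221) by DESeq2. Their sum did not overlap between the groups, and Ebf1, a transcription factor of the lineage, was at 0 in some libraries. The most abundant of them in Con were Cd79b (14.5 ± 1.24 CPM in Con, 13.1 ± 1.25 in Van) and Blk (3.57 ± 1.71 and 1.39 ± 0.52). Of 12 conventional dendritic cell markers, 10 were below 0, and 1 was called by edgeR and 3 by DESeq2, with none at 0 CPM and with sums that overlapped. The most abundant in Con, Itgax, was at 363 ± 26.7 CPM in Con and 342 ± 29.7 in Van, and Tmem123 at 285 ± 31.6 and 286 ± 33.9.

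The marker that edgeR called was Clec9a, a receptor of cross-presenting dendritic cells, at 11.5, 8.79 and 10.1 CPM in Con and 4.99, 4.18 and 4.80 CPM in Van (log2 fold change -1.12, edgeR adjusted p = 0.0131). Its call was lost without Con replicate 3 (adjusted p = 0.0721) and without Van replicate 2 (0.0758), and in the 3 limma settings (0.114 to 0.255). Xcr1 (-0.85, adjusted p = 0.0667 by edgeR and 0.0142 by DESeq2) and Batf3 (-0.40, 0.0875 by edgeR and 0.0281 by DESeq2), a receptor and a transcription factor of the same cells, did not overlap between the groups either. In the opposite direction, Flt3, a cytokine receptor of dendritic cells and their precursors, was at 35.7 ± 4.05 CPM in Con and 42.4 ± 2.49 in Van, also with no overlap (0.25, adjusted p = 0.230). These genes were named after their values were seen. The part of these cells in the Cd40 difference was not tested.

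**Figure D3:**
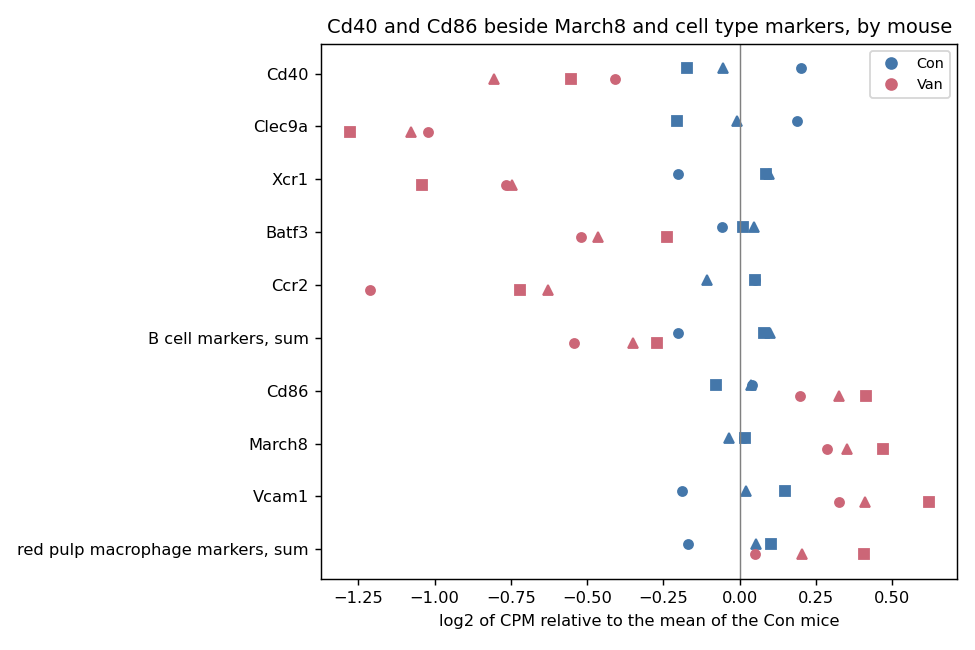
Log2 of CPM relative to the mean of the Con mice for Cd40 and Cd86, and for March8, Clec9a, Xcr1, Batf3, Ccr2, Vcam1 and the summed B cell and red pulp macrophage markers. Circles, squares and triangles are replicates 1, 2 and 3. Con and Van mice are separated in every row but the last, and the single genes other than Cd40, Cd86 and March8 were picked after their values were seen. Markers not shown include Flt3 and Cd14, both higher in Van with no overlap. The summed conventional dendritic cell markers, which overlapped, are not shown either.

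Since Cd86 and Cd40 differed in opposite directions, their ratio within a library was also read, a measure chosen after the values were seen and therefore given with no test. In FPKM, the ratio of Cd86 to Cd40 was 2.34, 2.46 and 2.40 in Con and 3.87, 4.73 and 4.23 in Van. The Con mice were at 2.40 ± 0.06 and the Van mice, at 4.28 ± 0.43, were all above them. In counts the ratio was 2.43, 2.91 and 2.90 in Con (2.75 ± 0.27) and 4.14, 5.31 and 5.97 in Van (5.14 ± 0.93), with a wider spread within the groups and no overlap. As the groups were already separated in each gene, in opposite directions, the separation of the ratio follows from them and is no further finding. A ratio within a library does not depend on the scaling between libraries.

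The signalling genes downstream of CD40 showed no call. All 10 genes of this list were tested, 5 with a log2 fold change above 0 and 5 below 0, with a median of 0.00. Traf3 and Traf6, adaptors that bind the CD40 tail, were at 113 ± 3.21 and 77.1 ± 1.52 CPM in Con and at 118 ± 11.0 and 78.1 ± 3.72 CPM in Van. The smallest p-values were those of Traf5, a further adaptor (with no overlap; log2 fold change -0.19, adjusted p = 0.403, -0.26 to -0.09 with a mouse left out) and of Map3k14, the NF-kB inducing kinase of the noncanonical pathway (-0.19, adjusted p = 0.409, -0.32 to -0.11 with a mouse left out). The transcript of CD40 ligand itself, Cd40lg, was at 0 in all 6 libraries, which allows up to 0.129 to 0.184 CPM at 3 of the estimated fragments of a library, for counting error only.

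Icosl, the ligand of ICOS, was at 49.2, 42.5 and 38.0 CPM in Con and at 41.0, 39.5 and 43.7 CPM in Van. The Van mice lay within the range of the Con mice. Its log2 fold change was -0.06 (SE 0.10; 95% interval -0.28 to 0.16; edgeR adjusted p = 0.819), and it was 0.04 without Con replicate 1.

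Cd83 varied most between the Van mice. It was at 292, 240 and 296 CPM in Con and at 391, 233 and 191 CPM in Van. Van replicate 1 was the highest of all 6 mice and the other Van mice the lowest. This gave a log2 fold change of -0.02 (SE 0.23; 95% interval -0.55 to 0.50; edgeR adjusted p = 0.974), an interval that holds changes of this size in either direction. Without Van replicate 1 it was -0.38 (adjusted p = 0.178), and without Van replicate 3 it was 0.18.

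Van replicate 1 was also the highest of the 6 mice for Havcr2, and at the ends of the range for some monocyte markers. It was highest of the 6 mice in Nr4a1 (4403 CPM, the other 5 mice between 3146 and 3445) and in Ace (3528 CPM, the others between 2261 and 2978), both genes of nonclassical monocytes, and lowest in Ccr2 (316 CPM). Of the other nonclassical markers of the list, it was highest in Treml4 (562 CPM) and Adgre4 (988 CPM), but Spn was highest in Con replicate 3 (1023 CPM, against 1004.5) and Cx3cr1 in Con replicate 2 (559 CPM, against 501). These genes were named after their values were seen, and their part in the Cd83 value was not tested.

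The ligands of PD-1 did not differ beyond the spread between mice. Cd274 was at 198.5, 116 and 155 CPM in Con and at 171, 115 and 103 CPM in Van. Both groups held high and low mice. A log2 fold change of -0.27 (SE 0.22; 95% interval -0.78 to 0.24; edgeR adjusted p = 0.618) resulted. It was larger, at -0.52 and -0.45, without Van replicate 1 or Con replicate 2, and smaller, at -0.13 and -0.06, without Van replicate 3 or Con replicate 1.

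Pdcd1lg2, the least abundant of the 9, was at 7.17, 5.19 and 5.38 CPM in Con and at 5.82, 5.91 and 3.89 CPM in Van. Con replicate 1 was highest and Van replicate 3 lowest, and the groups overlapped. For this gene the log2 fold change was -0.18 (SE 0.20; 95% interval -0.65 to 0.28; edgeR adjusted p = 0.729). It ran from -0.28 without Van replicate 2 to -0.02 without Con replicate 1 and -0.013 without Van replicate 3. The ratio of Cd274 to Pdcd1lg2 was 11.9 ± 1.57 in Con and 11.4 ± 2.32 in Van in FPKM.

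Among 8 genes of the trafficking and stability of PD-L1, March8 was the only call, and 6 were above and 2 below 0, their median being 0.06. Cmtm6, which keeps PD-L1 at the cell surface, was at 216 ± 7.66 CPM in Con and 195 ± 7.19 in Van with no overlap (log2 fold change -0.15, SE 0.06, edgeR adjusted p = 0.238). Cd44, a hyaluronan receptor, was at 941 ± 33.2 and 1039 ± 29.6 CPM, also with no overlap (0.14, adjusted p = 0.220).

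TIM-3 and its ligand followed. Lgals9 was at 99.1, 116.3 and 108.8 CPM in Con and at 80.5, 91.7 and 97.5 CPM in Van. Every Van mouse was below every Con mouse, though Van replicate 3 came close to Con replicate 1. For Lgals9 the log2 fold change was -0.27 (SE 0.09; 95% interval -0.47 to -0.06), or 0.83-fold, with a p of 0.0155 and an adjusted p of 0.183 in edgeR and of 0.0664 in DESeq2.

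Havcr2 was at 155, 138 and 155 CPM in Con and at 191, 146 and 158 CPM in Van. Van replicate 1 was highest, and the other Van mice lay within or just above the Con range. Its log2 fold change was 0.14 (SE 0.10; 95% interval -0.08 to 0.37; edgeR adjusted p = 0.539), and it was 0.03 without Van replicate 1, 0.09 without Con replicate 2 and 0.23 without Van replicate 2. The ratio of Havcr2 to Lgals9 in FPKM, also read after the values were seen, was 0.865, 0.645 and 0.812 in Con and 1.30, 0.900 and 0.901 in Van.

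Of 10 further TIM and galectin genes, 8 were tested and 0 called, their median being -0.02. P4hb, a disulfide isomerase known to bind galectin-9, was at 336 ± 21.9 CPM in Con and 398 ± 31.4 in Van with no overlap (0.24, SE 0.07, edgeR adjusted p = 0.151; DESeq2 adjusted p = 0.0338). Lgals3bp, a galectin-binding glycoprotein, was at 295 ± 20.6 and 276 ± 8.84 CPM. Ceacam1 and Hmgb1, both described as partners of TIM-3, were at 720 ± 65.4 and 121 ± 6.24 CPM in Con and at 704 ± 50.1 and 126 ± 4.16 CPM in Van. Timd2 was at 0 in all 6 libraries.

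**Figure D4:**
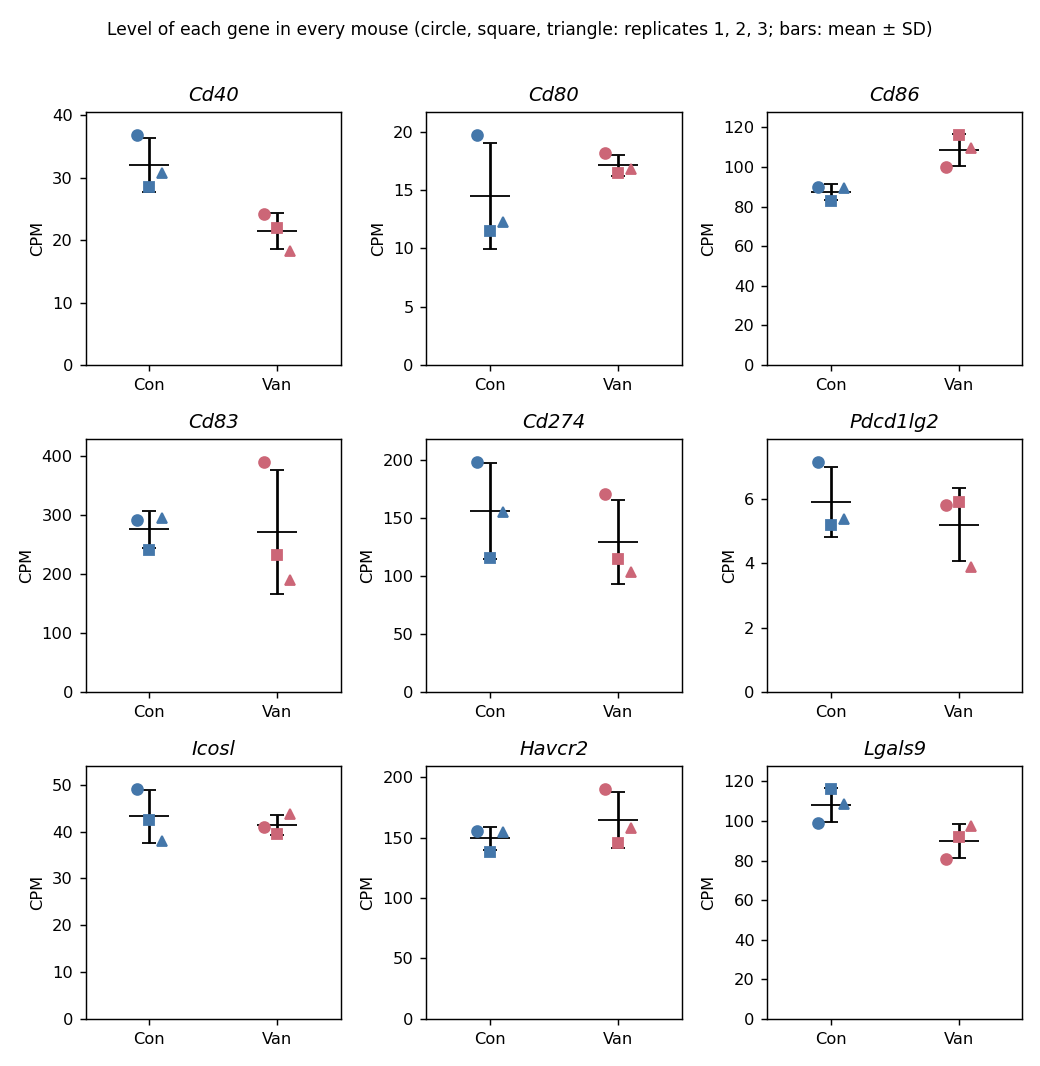
CPM of each of the 9 genes in the Con and Van mice, with axes from 0. Circles, squares and triangles are replicates 1, 2 and 3, and bars are mean ± SD. Con and Van mice are separated for Cd40, Cd86 and Lgals9, and Con replicate 1 is the highest of the 6 mice for Cd40, Cd80, Cd274, Pdcd1lg2 and Icosl.

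Across the 9 genes, single mice recurred at the ends of the range. Con replicate 1 was the highest of the 6 mice for 5 genes (Cd40, Cd80, Cd274, Pdcd1lg2 and Icosl) and the lowest for 0. Van replicate 3 was the lowest for 4 genes and the highest for 0. Van replicate 1 was the highest for 2 (Cd83 and Havcr2).

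Further genes of these pathways were listed by role, 61 in all, of which 50 were tested and 1, March8, was called, a share equal to the 2.00% of all genes. Of the 50, 23 were above and 27 below 0. An unadjusted p under 0.05 in edgeR was found for 7, beside 16.5% of all genes tested. No overlap was found for 11, beside 22.5% of all genes tested. Of 8 other B7, butyrophilin and HVEM-related genes, 5 were tested, their median being 0.10, and Vtcn1, Btn1a1 and Btn2a2 were at 0 throughout. Tnfrsf14 (HVEM), the partner of BTLA and CD160, was at 36.0 ± 5.65 CPM in Con and 27.0 ± 1.12 in Van with no overlap (-0.41, SE 0.11, edgeR adjusted p = 0.111; DESeq2 adjusted p = 0.0203). Cd160 was at 0.81 ± 0.23 and 1.19 ± 0.07 CPM (adjusted p = 0.423).

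Of 5 ligands of the TNF family, 3 were tested and all 3 were below 0, with a median of -0.26 and 0 called. Tnfsf9, the ligand of 4-1BB, was at 4.91 ± 1.60 CPM in Con and 3.35 ± 0.23 in Van (-0.55, SE 0.23, edgeR adjusted p = 0.277, and -0.25 without Con replicate 1), and Tnfsf14 (LIGHT), which binds HVEM, at 7.32 ± 0.99 and 6.11 ± 0.14 CPM (-0.26, adjusted p = 0.385). Neither overlapped between the groups. Tnfsf4, the ligand of OX40, was at 0 in all libraries. Of 10 adhesion and other checkpoint ligands, 10 were tested and 0 called, with a median of -0.05. Cd200, an inhibitory ligand, was at 4.84 ± 0.53 and 3.42 ± 1.05 CPM, and Fgl2, a secreted ligand of an inhibitory Fc receptor, at 140 ± 23.1 and 118 ± 9.59 CPM.

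Receptors known from T cells, with Rgmb, were at most at 17.7 CPM on average, beside T cell markers that summed to at most 67.2 CPM. Of 10 listed, 6 were tested, from Ctla4 at 0.30 CPM to Lag3, an inhibitory receptor, at 14.6 ± 2.11 CPM in Con and 17.7 ± 4.71 in Van. Icos was at 3.68 ± 0.12 CPM in Con and 3.01 ± 0.85 in Van, Cd28 at 1.06 ± 0.39 and 0.86 ± 0.10, Ctla4 at 0.30 ± 0.16 and 0.48 ± 0.19, and Pdcd1, which was too low to be tested, at 0.18 ± 0.05 and 0.22 ± 0.24. Cd226, an activating receptor, had the smallest p of the 6 tested (2.31 ± 0.65 and 1.18 ± 0.30 CPM; -0.97, SE 0.31, edgeR adjusted p = 0.163), and was followed by Rgmb, a PD-L2 binding protein (10.1 ± 1.17 and 8.82 ± 0.47 CPM). None of the 6 was called. Cd28, Ctla4 and Icos each stood on 2 identifiers with identical counts, so that how reads were shared among these is uncertain.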

How the data were processed

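The 6 libraries hold messenger RNA of splenic monocytes, 3 from the Con and 3 from the Van group. Per the labels, reads were aligned to GRCm38 with HISAT2 2.2.1, and FPKM values were made by the authors with StringTie 2.1.3 and Ballgown. The authors derived the deposited estimated counts from these values with tximport. The deposited totals stand for an estimated 16.3M to 23.2M fragments a library, taken at 0.375 fragments per estimated count. The study gives a lower number of paired reads for the sequencing, and this difference was not resolved. The estimated counts were rounded to whole numbers, and edgeR 4.0.16 was run under R 4.3.3 (TMM scaling, filterByExpr with a minimum count of 10, quasi-likelihood test, group as the only term, Benjamini-Hochberg adjustment). CPM use TMM library sizes. The standard error is the log2 fold change divided by the root of its F statistic. Alternatives were DESeq2 1.42.0, other scalings and filters, limma 3.58.1 on log2 FPKM after quantile normalization, with a pseudocount of 1 or 0.1, a replicate block, and each mouse left out. The edgeR, DESeq2 and limma steps were tested on simulated data.

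The members, gene lists and tests were chosen with earlier results of these data known. All 9 members are named. Of each further list, called genes, otherwise the 2 smallest p-values, and direct partners of a member are named. March1 is named in addition, beside March8. Same-numbered libraries did not deviate together (r = 0.03, -0.002 and -0.07), so the numbers were not taken as pairs. The third group of the study, given a lipid after vancomycin, was not analysed here. The libraries were matched to the Con and Van groups by treatment.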

Additional observations from a re-analysis of the deposited data

How the results depend on the processing

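The directions of Cd40, Cd86, Lgals9, Cd80, Cd274, Pdcd1lg2 and Havcr2 held in every alternative run. Cd40 was -0.58 in DESeq2, -0.57 with no filter on low counts, -0.58 with at least 10 counts in every library and -0.51 with limma on log2(FPKM + 1) of genes with a mean of at least 1 FPKM, and was called in each of these 4. Cd86 was called in DESeq2 only (0.31). The number of the 9 genes called was thus 2 in DESeq2 and 1 in each of the other 3. With a mouse left out, Cd83 ran from -0.38 to 0.18 and Icosl from -0.14 to 0.0370 (without Con replicate 1), so that both changed sign. The number of the 9 genes whose groups did not overlap ran from 3 to 5, the highest without Van replicate 1, beside 29.2% to 33.5% of all genes in these smaller fits.

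Over all genes, 962 were called by DESeq2, and 11, 21 and 97 by limma with log2(FPKM + 1), log2(FPKM + 0.1) and the mean of at least 1 FPKM. With a mouse left out edgeR called 21 to 136, and the cause was not tested beyond the fewer mice. Of the further pathway genes, 3 were called by DESeq2 (March8, P4hb and Tnfrsf14), 0 by the 3 limma settings, and 0 or 1 with a mouse left out, which was Tnfrsf14 without Con replicate 2. With the replicate number as a block, 110 genes, 0 of the 9 and 0 of the further pathway genes were called (March8 adjusted p = 0.102). With summed FPKM in place of CPM, the log2 ratio of Van to Con was -0.0557 for monocyte markers and 0.0516 for plasmacytoid dendritic cell markers, against -0.0353 and -0.0511. With 3 mice a group, the 95% interval of a log2 fold change reached 0.5 or more to either side of the value for Cd83 and Cd274, so differences of that size could not be resolved in them.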
